A study of Homo sapiens with 24 samples.

Results

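The unfolded protein and amino acid stress genes are a set of 35 genes that cells use when proteins fail to fold in the endoplasmic reticulum (ER) or when amino acids run short. They form a list of gene names, with no threshold on measured values, but it was chosen with earlier results of these data known. The shares of the list called below therefore describe it and do not test it. Each gene was read from the probe set (the group of probes that reports a transcript) whose only gene symbol was that gene. Where a gene had several, the one with the highest mean over all arrays was taken. All 35 had a probe set, among 18417 genes with a probe set of 1 symbol. Expression was measured on 24 Affymetrix Human Gene 1.0 ST arrays of MCF10A cells, a non-tumorigenic human mammary epithelial line. The cells carried 1 of 3 transfected oligonucleotides: si-miR-20a, directed at the microRNA miR-20a, si-miR-671, directed at miR-671-5p, or a non-targeting oligonucleotide, called control here. Each was sampled after 0, 30, 60 or 120 min with EGF (epidermal growth factor), with 2 replicates in each of the 12 groups. Per the labels, all cells had grown in medium with serum, insulin, cholera toxin, hydrocortisone and EGF itself, and all had been through Oligofectamine transfection. How long the cells were kept between transfection and EGF, and whether they were starved, is not stated there. The labels call the replicates biological but do not say whether they came from separate cultures, so p-values measure only the spread between these samples.

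In the unfolded protein response, misfolded protein in the ER is sensed by IRE1, ATF6 and PERK; IRE1 splices the mRNA of XBP1, ATF6 is cut to release a transcription factor, and PERK phosphorylates the translation factor eIF2alpha. Phosphorylated eIF2alpha, which the kinase GCN2 also makes when amino acids are scarce, slows translation in general while favouring that of ATF4, and this branch is called the integrated stress response. ATF4 drives genes for amino acid synthesis, amino acid uptake and feedback, whereas XBP1 and ATF6 drive ER chaperones and the machinery that removes misfolded proteins. Both ATF4 translation and XBP1 splicing act after the mRNA is made, so the arrays read the transcripts of these factors and not their activity.

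The targeted microRNAs are shown first, because their seeds (bases 2 to 8, in capitals) are what pair with target mRNAs. Both sequences are from RefSeq on GRCh38.p14; the label names miR-20a without an arm, and its 5p arm is given. They lie on the plus strand, at chr13:91351072-91351094 and chr7:151238449-151238471, and the seeds differ.
hsa-miR-20a-5p: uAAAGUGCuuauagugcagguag
hsa-miR-671-5p: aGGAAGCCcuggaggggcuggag

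The promoters printed next are those of 5 genes picked from the members that held a match to the elements below. Each is the 250 bases before the RefSeq transcription start on GRCh38.p14, read 5′ to 3′ on the gene's strand. Capitals mark matches, on either strand, to the C/EBP-ATF response element TGATGNAA, to which ATF4 binds with a C/EBP partner, or to 2 ER stress response elements, to which ATF6 and XBP1 bind: the longer is CCAAT and CCACG with 9 bases between them, and the shorter is ATTGG and CCACG with 1 base between them. ASNS (chr7:97872409-97872658, minus strand) and CHAC1 (chr15:40953221-40953470, plus strand) held the C/EBP-ATF element. HERPUD1 (chr16:56931892-56932141, plus strand) held it and the shorter ER stress element. HSPA5 (chr9:125241344-125241593, minus strand) and CALR (chr19:12938359-12938608, plus strand) held the longer ER stress element.
ASNS: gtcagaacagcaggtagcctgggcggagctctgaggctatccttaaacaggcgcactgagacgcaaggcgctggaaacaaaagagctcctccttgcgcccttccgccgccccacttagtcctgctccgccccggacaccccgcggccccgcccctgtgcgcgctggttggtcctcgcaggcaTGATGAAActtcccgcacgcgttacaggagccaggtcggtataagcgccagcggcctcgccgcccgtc
CHAC1: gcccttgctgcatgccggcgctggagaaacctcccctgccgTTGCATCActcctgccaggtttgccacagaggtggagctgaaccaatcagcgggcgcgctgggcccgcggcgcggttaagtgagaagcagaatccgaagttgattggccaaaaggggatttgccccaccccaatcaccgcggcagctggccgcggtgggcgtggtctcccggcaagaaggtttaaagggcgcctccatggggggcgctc
HERPUD1: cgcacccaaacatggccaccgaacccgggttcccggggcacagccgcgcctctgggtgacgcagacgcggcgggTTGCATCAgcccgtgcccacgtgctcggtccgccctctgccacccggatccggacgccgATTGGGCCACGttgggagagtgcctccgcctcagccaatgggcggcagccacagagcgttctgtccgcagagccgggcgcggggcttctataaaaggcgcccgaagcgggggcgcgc
HSPA5: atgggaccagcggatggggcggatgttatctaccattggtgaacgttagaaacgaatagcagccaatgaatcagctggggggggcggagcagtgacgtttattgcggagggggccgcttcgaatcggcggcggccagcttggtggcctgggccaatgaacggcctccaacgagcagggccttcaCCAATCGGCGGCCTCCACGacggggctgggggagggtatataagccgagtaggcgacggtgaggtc
CALR: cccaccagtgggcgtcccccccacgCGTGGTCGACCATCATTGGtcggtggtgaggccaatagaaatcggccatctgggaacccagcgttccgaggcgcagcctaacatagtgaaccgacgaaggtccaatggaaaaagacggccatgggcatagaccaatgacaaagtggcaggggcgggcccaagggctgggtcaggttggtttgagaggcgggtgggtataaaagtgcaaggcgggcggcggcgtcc

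Of the 35 genes, 31 had a promoter in the RefSeq table, 48 promoters in all. The C/EBP-ATF element was found in 5 of the 48 (ASNS, CHAC1, HERPUD1, CEBPG and SLC1A5), and in 1104 of all 35116 promoters of the same length (3.14%). The longer ER stress element was found in another 5 (HSPA5, HSP90B1, CALR, PDIA6 and XBP1), and in 26 of all promoters (0.0740%). The shorter one was found in HERPUD1 and SDF2L1, and in 18 of all promoters (0.0513%). PPP1R15A, STC2, TRIB3, DNAJC3, PDIA4 and CEBPB, which recur in the results, held no match to any of these elements. A match describes these letters in this window and is not evidence of binding.

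Values are the authors' deposited log2 levels, and differences are on the same log2 scale. A gene was called when its adjusted p was under 0.05 in limma with Benjamini-Hochberg adjustment over 19460 probe sets; errors are the model's standard errors (SE) unless named otherwise, and every comparison below uses 1 fit of all 24 arrays. Within groups the replicates correlated at 0.975 to 0.990 across probe sets, and the SD of their difference ran from 0.230 (si-miR-671 at 60 min) to 0.431 (si-miR-671 at 120 min). Of the basal epithelial markers 6 of 10 were measured and all lay above the median of all values, led by KRT5 at a mean of 12.7. Above it too lay 6 of 9 luminal markers (KRT18 at 11.2, KRT8 at 10.8 and EPCAM at 8.62, but PGR at 4.81 and PRLR at 4.46), 4 of 8 mesenchymal markers (VIM at 11.5) and 2 of 7 blood and endothelial markers (CDH5 at 10.2 and CD14 at 8.04, but PTPRC at 4.28 and HBB at 4.88). In these bulk samples, fewer cells with a transcript and less of it per cell cannot be told apart. Every array after 0 min came from cells given EGF, so changes over the minutes of EGF cannot be told apart from effects of time or handling. The mature microRNAs were not measured.

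Most of the 35 transcripts were abundant before any comparison. The mean lay above the median of all values (6.57) for 33 genes and above 10 for 10 of them. The 3 highest were SLC3A2, the heavy chain shared by several amino acid transporters, at a mean of 12.03, PDIA6, a disulphide isomerase, at 11.65, and HSP90B1, the ER form of HSP90, at 11.56. ATF4 itself averaged 10.91. The lowest 2 were CHAC1, an enzyme that degrades glutathione, at 5.18 and CTH, which makes cysteine from cystathionine, at 5.47. Probe sets differ in affinity, so these levels do not rank the genes by mRNA amount.

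The genes differed in how far they moved over the 24 arrays. The highest array minus the lowest was under 0.5 for 12 genes and over 1 for 9. The widest ranges were those of PPP1R15A (1.82), which directs a phosphatase to eIF2alpha and so ends the translation block, CHAC1 (1.78), STC2 (1.54), a secreted glycoprotein induced by ER stress, and SESN2 (1.30), a leucine sensor that restrains mTORC1. These 4 are feedback and stress outputs; the other 5 over 1 were CEBPB (1.19), TRIB3 (1.15), ASNS (1.01), DNAJC3 (1.01) and DDIT3 (1.01). The narrowest range was that of SLC3A2 (0.27).

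PPP1R15A rose within 30 min of EGF. Averaged over the 3 transfections, it rose by 0.97 ± 0.06 at 30 min (adjusted p = 2.3e-07, n = 6 arrays per time), 1.28 ± 0.06 at 60 min (3.6e-09) and 0.50 ± 0.06 at 120 min (7.2e-05). In si-miR-20a the levels were 8.02 and 7.88 at 0 min, 8.72 and 8.71 at 30 min, 9.40 and 9.08 at 60 min, and 8.48 and 8.45 at 120 min. In si-miR-671 they were 7.78 and 7.58, 8.90 and 8.97, 9.09 and 9.23, and 8.40 and 8.53 at the same times. In control they were 7.95 and 7.81, 8.72 and 8.80, 8.97 and 8.92, and 8.19 and 7.99. In every transfection the 60 min arrays were the highest, and no array at 30 or 60 min overlapped the 0 min arrays.

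All 3 later times are set against the same 6 arrays at 0 min. At 30 min PPP1R15A was the only 1 of the 35 genes called, where 0.766% of all probe sets were called (0.725% higher). DDIT3, which encodes the pro-death factor CHOP, was next in size at 0.25 ± 0.10 (adjusted p = 0.63). At 60 min 3 genes were called, all higher, where 2.66% of all probe sets were called (2.16% higher). Beside PPP1R15A these were STC2 (0.48 ± 0.05, adjusted p = 3.3e-05) and XBP1 (0.23 ± 0.05, adjusted p = 0.025). XBP1 at 60 min was not called when any of 10 of the 12 compared arrays was left out (adjusted p from 0.053 to 0.086), nor without the si-miR-671 arrays (0.15). DDIT3 stood at 0.31 ± 0.10 (adjusted p = 0.14) and TRIB3 at 0.22 ± 0.08 (0.27).

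**Figure D1:**
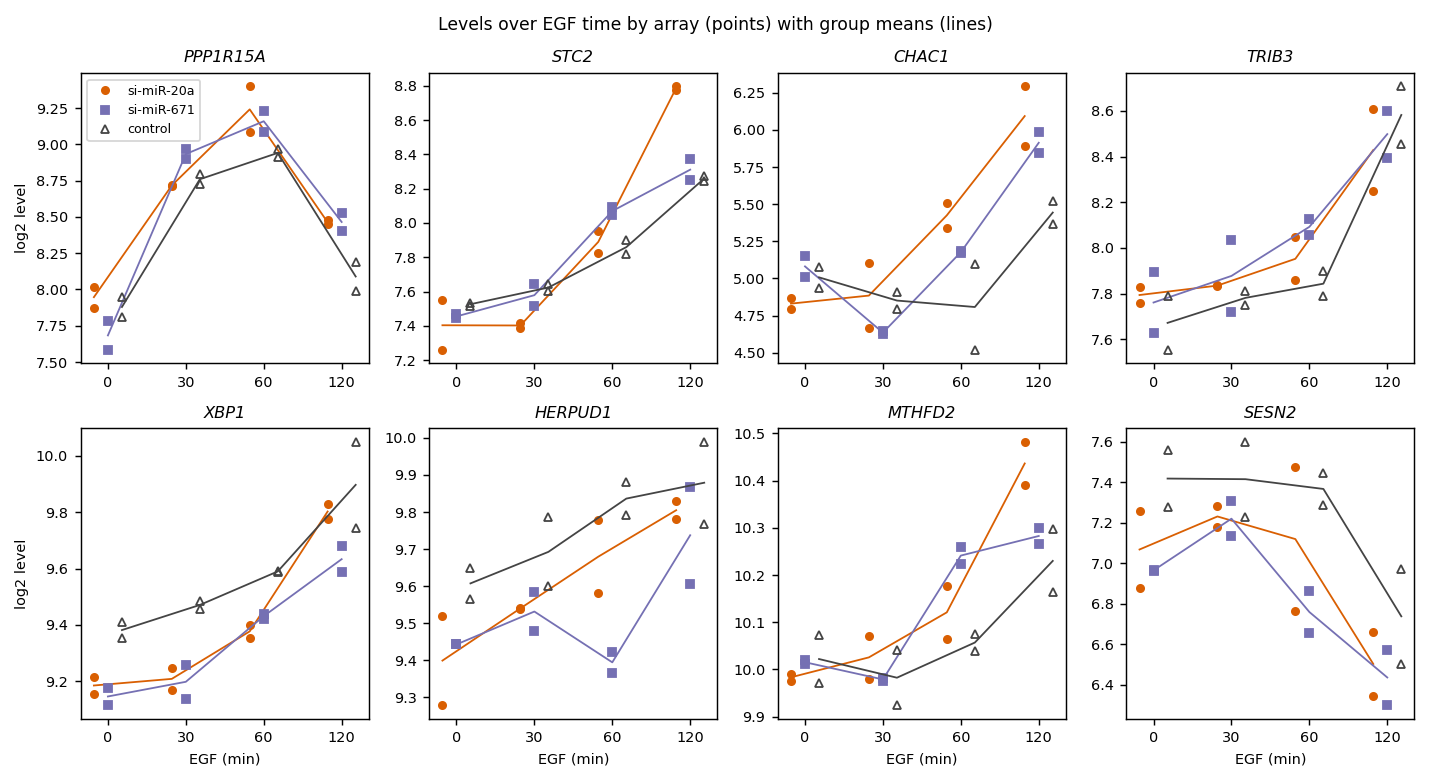
Log2 level (vertical axis) against minutes of EGF (horizontal axis, times spaced evenly) for 8 genes. Each point is 1 array, and each line joins the means of 2 replicates of si-miR-20a, si-miR-671 or control. PPP1R15A is highest at 60 min in all 3 transfections, and STC2 is highest at 120 min, with the si-miR-20a arrays at 8.80 and 8.78.

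By 120 min 14 of the 35 genes (40.0%) were called, 10 higher and 4 lower. Of all probe sets 13.4% were called (7.13% higher and 6.27% lower). A separate fit of the 12967 probe sets whose highest group mean reached the median of all values called 22.8% of them. That fit has its own adjustment and leaves out CHAC1, which counts among the 14, so its share is not like for like. All 5 feedback and stress outputs were called, 4 higher and 1 lower. Of the 7 stress transcription factors, 2 were higher and 1 lower; of the 8 synthesis enzymes, 1 was higher and 1 lower; of the 4 transporters 1 was lower. Of the 8 ER chaperones and folding enzymes 2 were higher, and of the 3 genes of ER-associated degradation 1. The median change of the 35 was 0.04, against 0.01 over all probe sets.

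STC2 had the largest rise. Its lowest, median and highest levels were 8.24, 8.32 and 8.80 over the 6 arrays at 120 min, against 7.26, 7.49 and 7.55 at 0 min. The times did not overlap, and the change was 0.99 ± 0.05, or 1.99-fold (adjusted p = 4.3e-09). TRIB3, a pseudokinase that ATF4 and CHOP induce and that restrains them, had 8.25, 8.53 and 8.71 at 120 min, against 7.55, 7.77 and 7.90 at 0 min, and rose by 0.76 ± 0.08 (1.5e-05), again without overlap. CHAC1 had 5.37, 5.87 and 6.29 at 120 min, against 4.79, 4.97 and 5.15 at 0 min, and rose by 0.84 ± 0.10 (3.7e-05). Its levels stayed below the median of all values at both times. SESN2 went the other way: 6.30, 6.54 and 6.97 at 120 min, against 6.88, 7.11 and 7.56 at 0 min. The times overlapped, and the change was -0.59 ± 0.13 (adjusted p = 0.0065).

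Among the transcription factors, XBP1 rose by 0.54 ± 0.05 (adjusted p = 3.4e-06). Its lowest level at 120 min was above its highest at 0 min. CEBPG, the C/EBP partner that dimerises with ATF4, rose by 0.24 ± 0.07 (0.033), but was not called without any of 7 of the 12 arrays (0.066 to 0.093). NUPR1, a small stress-induced chromatin protein, fell by 0.24 ± 0.05 (0.0037), with 9.12, 9.23 and 9.43 at 120 min, against 9.45, 9.47 and 9.59 at 0 min; it was not called in a fit of the compared arrays only (0.059). ATF4 mRNA stood at 0.16 ± 0.06 (adjusted p = 0.072) and CEBPB at 0.17 ± 0.09 (0.24), neither called.

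The enzymes and transporters moved little. MTHFD2, the mitochondrial one-carbon enzyme, rose by 0.31 ± 0.04 (adjusted p = 1.9e-04), with 10.16, 10.30 and 10.48 at 120 min and 9.97, 10.00 and 10.07 at 0 min. Its second probe set gave 0.29 ± 0.05 (0.0021). PSPH, the last enzyme of serine synthesis, stood at -0.18 ± 0.05 (0.019) and was not called without control 0 min replicate 1 (0.058) or si-miR-671 120 min replicate 2 (0.054); the human genome holds a near-identical copy of it, so its value is uncertain. SLC1A5, the glutamine carrier, stood at -0.19 ± 0.06 (0.034), a call lost without any of 10 of the 12 arrays (0.052 to 0.099) and not seen in its dimmer second probe set (0.07 ± 0.19, adjusted p = 0.88).

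Of the ER genes, HERPUD1, which organises the degradation machinery at the ER membrane, rose by 0.32 ± 0.07 (adjusted p = 0.0037), with 9.61, 9.80 and 9.99 at 120 min and 9.28, 9.48 and 9.65 at 0 min. DNAJB9 (0.25 ± 0.07, 0.032), a co-chaperone that is a classical XBP1 target, and SDF2L1 (0.18 ± 0.06, 0.045), a component of an ER chaperone complex, were called as well. DNAJB9 was not called without any of 6 of the 12 arrays (0.087 to 0.098), nor SDF2L1 without any of 10 (0.052 to 0.13). The transfections also differed, by means of 0 and 30 min against means of 60 and 120 min. DNAJB9 went from 7.55 to 7.80 in si-miR-20a and 7.77 to 7.99 in control, but from 7.53 to 7.49 in si-miR-671. SDF2L1 went from 7.50 to 7.84 in si-miR-671 and 7.88 to 7.98 in control, but from 7.82 to 7.83 in si-miR-20a. The central chaperone HSPA5, known as BiP, had 11.14, 11.38 and 11.57 at 120 min and 11.19, 11.28 and 11.46 at 0 min. The times overlapped, and it was not called. Over the same minutes 2 of 6 basal markers rose, 1 of 9 luminal markers rose and 1 fell, and 2 of 7 blood and endothelial markers rose and 2 fell. At 120 min the luminal marker that rose was FOXA1, a transcription factor, at 1.27 ± 0.07, and the luminal marker that fell was GATA3, at -0.60 ± 0.08. Their part in the stress gene changes was not tested.

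**Figure D2:**
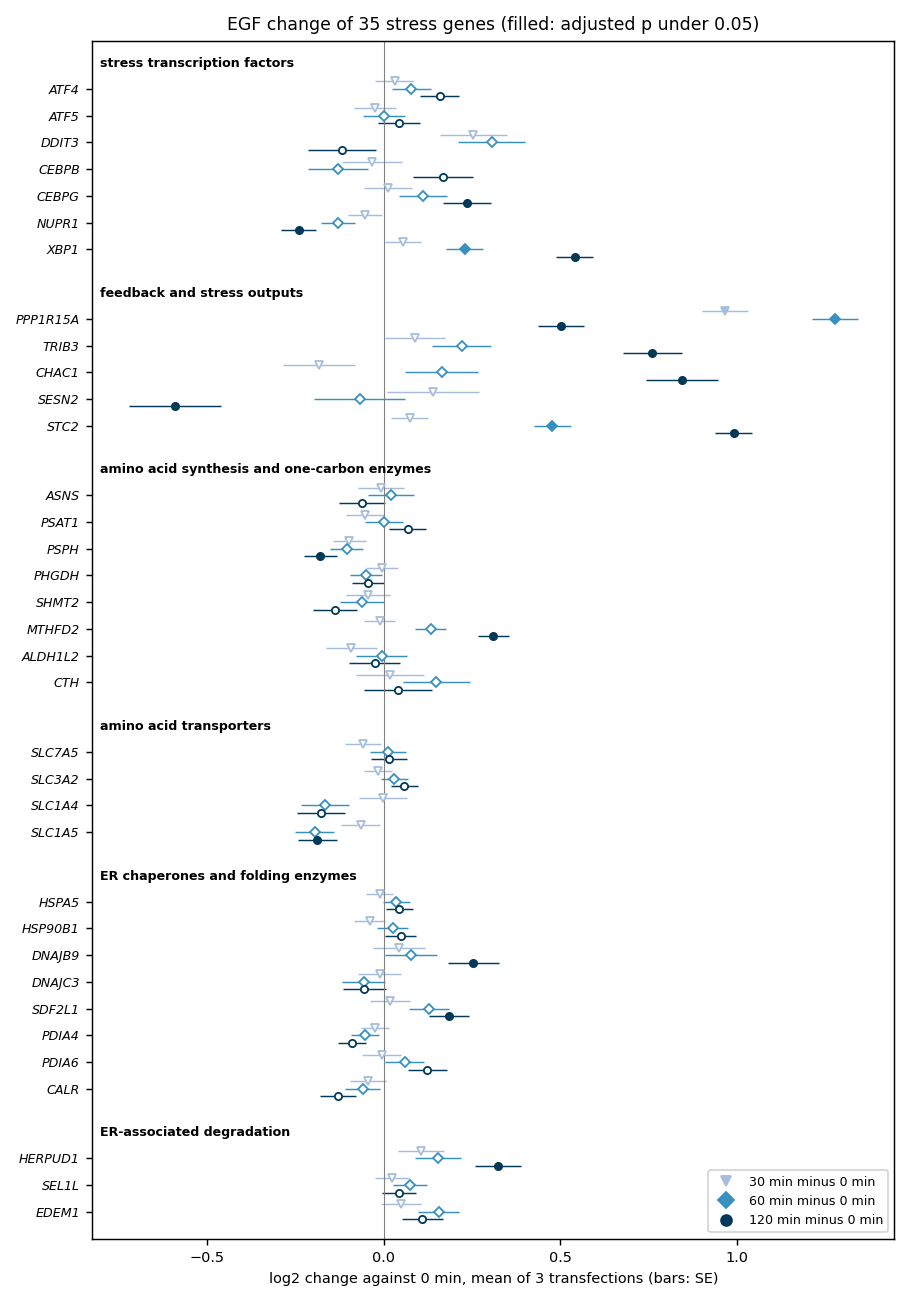
Log2 change against 0 min (horizontal axis, bars are SE) at 30, 60 and 120 min of EGF for the 35 genes, averaged over 3 transfections (6 arrays per time) and grouped by role. Filled symbols have an adjusted p under 0.05; the largest value at 120 min is that of STC2 (0.99) and the lowest that of SESN2 (-0.59).

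Within single transfections (2 arrays against 2), the EGF change at 120 min was called for 7 of the 35 genes in si-miR-20a, 5 in si-miR-671 and 3 in control, all higher, where 7.64%, 5.95% and 2.96% of all probe sets were called (4.49%, 3.22% and 2.17% higher). STC2 had 8.80 and 8.78 at 120 min, against 7.55 and 7.26 at 0 min, in si-miR-20a. It had 8.25 and 8.37 at 120 min, against 7.47 and 7.44 at 0 min, in si-miR-671. In control it had 8.24 and 8.27 at 120 min, against 7.54 and 7.52 at 0 min. The changes were 1.38 ± 0.09 in si-miR-20a (adjusted p = 2.1e-07), 0.86 ± 0.09 in si-miR-671 (3.3e-05) and 0.73 ± 0.09 in control (1.7e-04), and were called without any 1 of the 4 arrays in each. In a fit of the 4 compared arrays only, STC2 was called in si-miR-20a (adjusted p = 0.048) but not in si-miR-671 (0.13) or control (0.12). None of the other single-transfection calls of the 35 genes held in such fits (0.093 to 0.52). A fit of 4 arrays leaves few degrees of freedom to estimate the spread. A call lost there therefore does not show that the change was absent.

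CHAC1 had 6.29 and 5.89 at 120 min, against 4.79 and 4.87 at 0 min, in si-miR-20a, a change of 1.26 ± 0.18 (adjusted p = 4.2e-04). In si-miR-671 it had 5.84 and 5.98, against 5.15 and 5.01, a change of 0.83 ± 0.18 (0.011), which was not called without si-miR-671 0 min replicate 2 (0.10) or 120 min replicate 2 (0.080). In control it had 5.52 and 5.37, against 5.08 and 4.93, and the change of 0.44 ± 0.18 was not called (0.31). In each transfection the 120 min arrays lay above the 0 min arrays. The difference between transfections was tested over early and late times, as given with those comparisons.

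XBP1 rose by 0.62 ± 0.09 in si-miR-20a (adjusted p = 5.6e-04), 0.49 ± 0.09 in si-miR-671 (0.0039) and 0.52 ± 0.09 in control (0.0034). The call was lost without si-miR-671 0 min replicate 2 (0.051) and without control 120 min replicate 1 (0.053). TRIB3 rose by 0.63 ± 0.15 in si-miR-20a (0.015), 0.74 ± 0.15 in si-miR-671 (0.0064) and 0.91 ± 0.15 in control (0.0018). In si-miR-20a that call was lost without any of 3 of the 4 arrays (0.060 to 0.084), and in si-miR-671 without replicate 2 at 0 min (0.098) or 120 min (0.070). PPP1R15A was called in si-miR-20a (0.52 ± 0.11, 0.011) and si-miR-671 (0.78 ± 0.11, 5.1e-04); in si-miR-20a the call was lost without replicate 2 at 0 min (0.082) or 120 min (0.072). MTHFD2 (0.45 ± 0.08, 0.0020) and HERPUD1 (0.41 ± 0.11, 0.043) were called in si-miR-20a, HERPUD1 not without any of 3 of the 4 arrays (0.060 to 0.24). MTHFD2 stood at 0.27 ± 0.08 in si-miR-671 (0.054) and 0.21 ± 0.08 in control (0.23), and HERPUD1 at 0.29 ± 0.11 (0.16) and 0.27 ± 0.11 (0.33) in that order. SESN2 was not called in any single transfection, at -0.57 ± 0.22 in si-miR-20a, -0.53 ± 0.22 in si-miR-671 and -0.68 ± 0.22 in control.

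Averaged over the 4 times (8 arrays against 8), the ER chaperones were lower in cells with si-miR-20a than in control. Of the 35 genes 18 were called (51.4%), 6 higher and 12 lower, where 24.5% of all probe sets were called (11.9% higher and 12.7% lower). The separate fit of the 12967 brighter probe sets called 37.6% of them, without CHAC1, which counts among the 18. Of the 8 ER chaperones and folding enzymes 7 were lower and 0 higher, and of the 7 stress transcription factors 3 were lower. Of the feedback outputs 2 of 5 were higher, of the synthesis enzymes 2 of 8 were higher and 1 lower, and of the transporters 2 of 4 were higher and 1 lower. The median difference of the 35 was -0.08, against 0.01 over all probe sets.

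In cells with si-miR-671 16 of the 35 genes were called against control (45.7%), 4 higher and 12 lower. Of all probe sets 14.5% were called (6.79% higher and 7.70% lower). The separate fit of the 12967 brighter probe sets called 23.8% of them. Here too 7 of the 8 ER chaperones and folding enzymes were lower and 0 higher, with 2 of the 3 degradation genes and 2 of the 7 transcription factors. Of the synthesis enzymes 3 of 8 were higher, and of the transporters 1 of 4. The median difference of the 35 was -0.09, against 0.00 over all probe sets. Both transfections are set against the same 8 control arrays, so their values are given side by side and their likeness is not a result.

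CALR, the calcium-binding chaperone calreticulin, had a lowest, median and highest level of 10.78, 10.83 and 11.04 in si-miR-20a, 10.77, 10.99 and 11.15 in si-miR-671, and 11.31, 11.35 and 11.45 in control. Neither transfection overlapped control. The differences from control were -0.50 ± 0.04 for si-miR-20a (adjusted p = 1.2e-06) and -0.38 ± 0.04 for si-miR-671 (3.2e-05). DNAJC3, a co-chaperone that also inhibits eIF2alpha kinases, had 9.38, 9.54 and 9.67 in si-miR-20a, 9.29, 9.76 and 9.94 in si-miR-671, and 9.99, 10.11 and 10.31 in control. Its differences were -0.58 ± 0.05 (1.8e-06) for si-miR-20a, a level 1.49-fold lower, and -0.44 ± 0.05 (4.0e-05) for si-miR-671. Again no array of either transfection reached the control arrays.

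PDIA4, a disulphide isomerase, had 10.47, 10.57 and 10.62 in si-miR-20a, 10.50, 10.71 and 10.76 in si-miR-671, and 10.85, 10.95 and 10.98 in control. HSPA5 had 11.16, 11.25 and 11.39 in si-miR-20a, 11.14, 11.24 and 11.31 in si-miR-671, and 11.45, 11.47 and 11.57 in control. For both genes all control arrays lay above all others. PDIA4 differed from control by -0.38 ± 0.03 in si-miR-20a (adjusted p = 1.9e-06) and -0.27 ± 0.03 in si-miR-671 (8.0e-05), and HSPA5 by -0.24 ± 0.03 (7.8e-05) and -0.26 ± 0.03 (7.2e-05) in the same order. These differences are small in fold, 1.18-fold for HSPA5 in si-miR-20a and 1.20-fold in si-miR-671.

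The remaining chaperone genes differed less or overlapped. PDIA6 stood at -0.22 ± 0.05 in si-miR-20a (adjusted p = 0.0036) and -0.15 ± 0.05 in si-miR-671 (0.044), and the second of these was not called without any of 12 of the 16 arrays (0.058 to 0.11). DNAJB9 stood at -0.20 ± 0.06 in si-miR-20a (0.029), not called without any of 8 of the 16 arrays (0.059 to 0.072), and at -0.37 ± 0.06 in si-miR-671 (9.4e-04). HSP90B1 was called in si-miR-20a (-0.11 ± 0.04, 0.040), but not without any of 12 of the 16 arrays (0.056 to 0.10). SDF2L1 was lower in si-miR-671 (-0.26 ± 0.05, 0.0020). Of the degradation genes HERPUD1 (-0.23 ± 0.06, 0.013) and SEL1L (-0.17 ± 0.04, 0.013), which holds the ubiquitin ligase complex together, were lower in si-miR-671; HERPUD1 stood at -0.15 ± 0.06 in si-miR-20a (0.073).

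**Figure D3:**
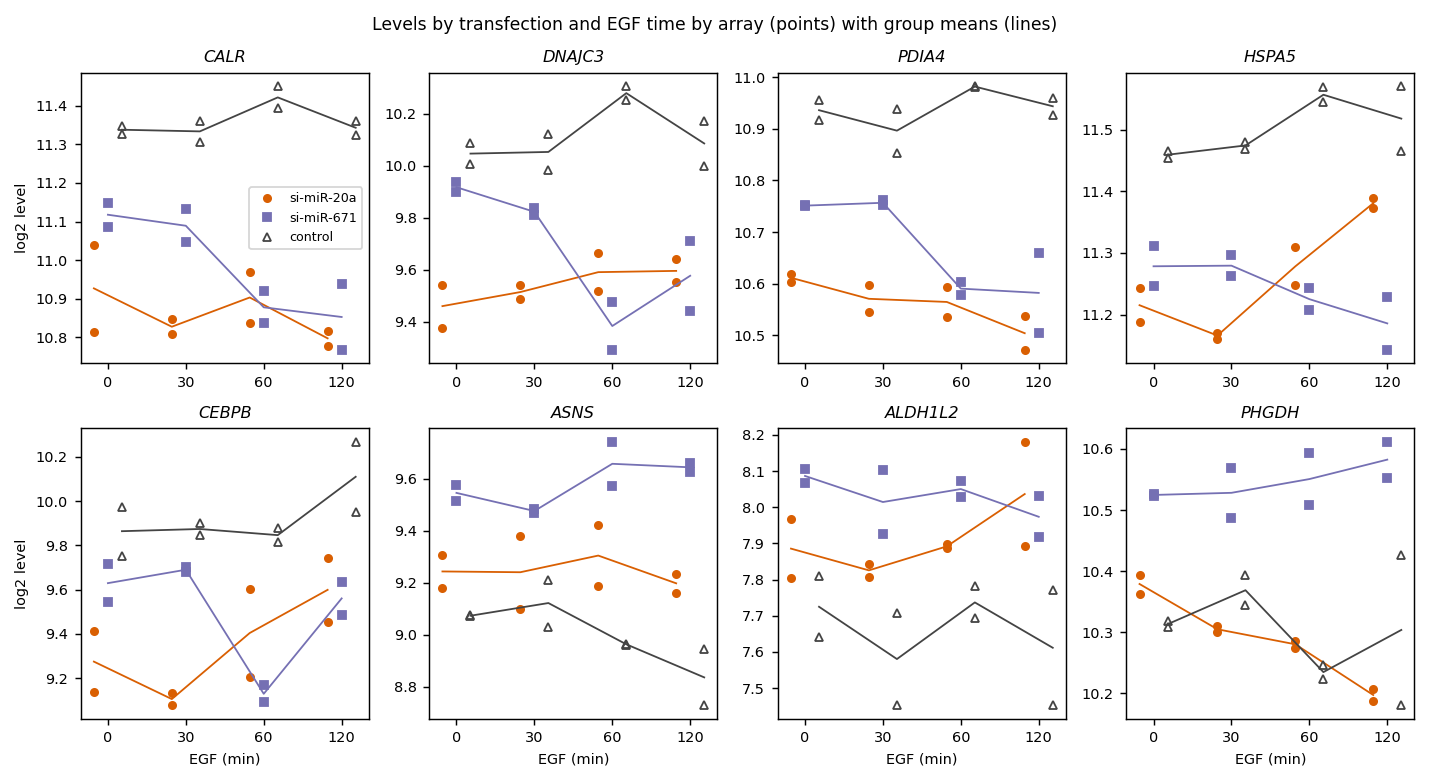
Log2 level (vertical axis) against minutes of EGF (horizontal axis, times spaced evenly) for 8 genes that differed between transfections. Each point is 1 array and each line joins the means of 2 replicates. For DNAJC3 the si-miR-671 arrays lie at 9.81 to 9.94 at 0 and 30 min and at 9.29 to 9.71 at 60 and 120 min.

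Among the transcription factors CEBPB, which partners ATF4 and also drives inflammatory and differentiation genes, was lower in both. It had 9.08, 9.31 and 9.74 in si-miR-20a, 9.09, 9.59 and 9.72 in si-miR-671, and 9.75, 9.89 and 10.27 in control. The highest si-miR-20a array lay just below the lowest control array. The differences were -0.58 ± 0.07 for si-miR-20a (adjusted p = 4.3e-05) and -0.42 ± 0.07 for si-miR-671 (0.0011). XBP1 differed by -0.19 ± 0.04 in si-miR-20a (0.0053) and -0.23 ± 0.04 in si-miR-671 (0.0023). ATF4 mRNA was lower in si-miR-20a (-0.18 ± 0.05, 0.012), but its second, dimmer probe set gave -0.04 ± 0.07 (adjusted p = 0.75) and the mean of both was not called.

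ASNS, which makes asparagine from aspartate and glutamine and is a textbook ATF4 target, was higher in both. It had 9.10, 9.21 and 9.42 in si-miR-20a, 9.47, 9.57 and 9.74 in si-miR-671, and 8.73, 8.998 and 9.21 in control. All si-miR-671 arrays lay above all others, while si-miR-20a and control overlapped. The differences from control were 0.25 ± 0.06 for si-miR-20a (adjusted p = 0.0041) and 0.58 ± 0.06 for si-miR-671 (4.9e-06), the second a level 1.497-fold higher. ALDH1L2, a mitochondrial folate enzyme, was higher by 0.25 ± 0.06 in si-miR-20a (0.0090) and by 0.37 ± 0.06 in si-miR-671 (8.7e-04). PHGDH, the first enzyme of serine synthesis, had 10.49, 10.54 and 10.61 in si-miR-671, against 10.18, 10.31 and 10.43 in control, without overlap, and was higher by 0.24 ± 0.04 (5.8e-04).

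Most of the other enzymes were not higher. PSPH was lower in si-miR-20a (-0.18 ± 0.04, adjusted p = 0.0042; its second probe set gave -0.29 ± 0.06, 0.0034). PSAT1, SHMT2, MTHFD2 and CTH were called in neither transfection. Of the transporters SLC7A5, the light chain that carries leucine in exchange for glutamine, was higher by 0.21 ± 0.04 in si-miR-20a (0.0028) and 0.20 ± 0.04 in si-miR-671 (0.0051). Its partner SLC3A2 was called in si-miR-20a (0.11 ± 0.03, 0.033), though not without any of 9 of the 16 arrays (0.054 to 0.081). SLC1A5 was lower in si-miR-20a (-0.29 ± 0.05, 4.0e-04); its second probe set gave 0.03 ± 0.17 (adjusted p = 0.94), and the mean of both probe sets was not called.

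Of the feedback outputs CHAC1 (0.28 ± 0.09, adjusted p = 0.030) and PPP1R15A (0.17 ± 0.06, 0.034) were called higher in si-miR-20a, CHAC1 not without any of 8 of the 16 arrays (0.063 to 0.081) and PPP1R15A not without any of 10 (0.052 to 0.083). SESN2 was called lower in si-miR-671 (-0.39 ± 0.11, 0.030), but not without any of 9 of the 16 arrays (0.057 to 0.078). In si-miR-20a it stood at -0.25 ± 0.11 (0.12). DDIT3 was called in neither, at -0.20 ± 0.08 in si-miR-20a (0.10) and -0.16 ± 0.08 in si-miR-671 (0.27).

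**Figure D4:**
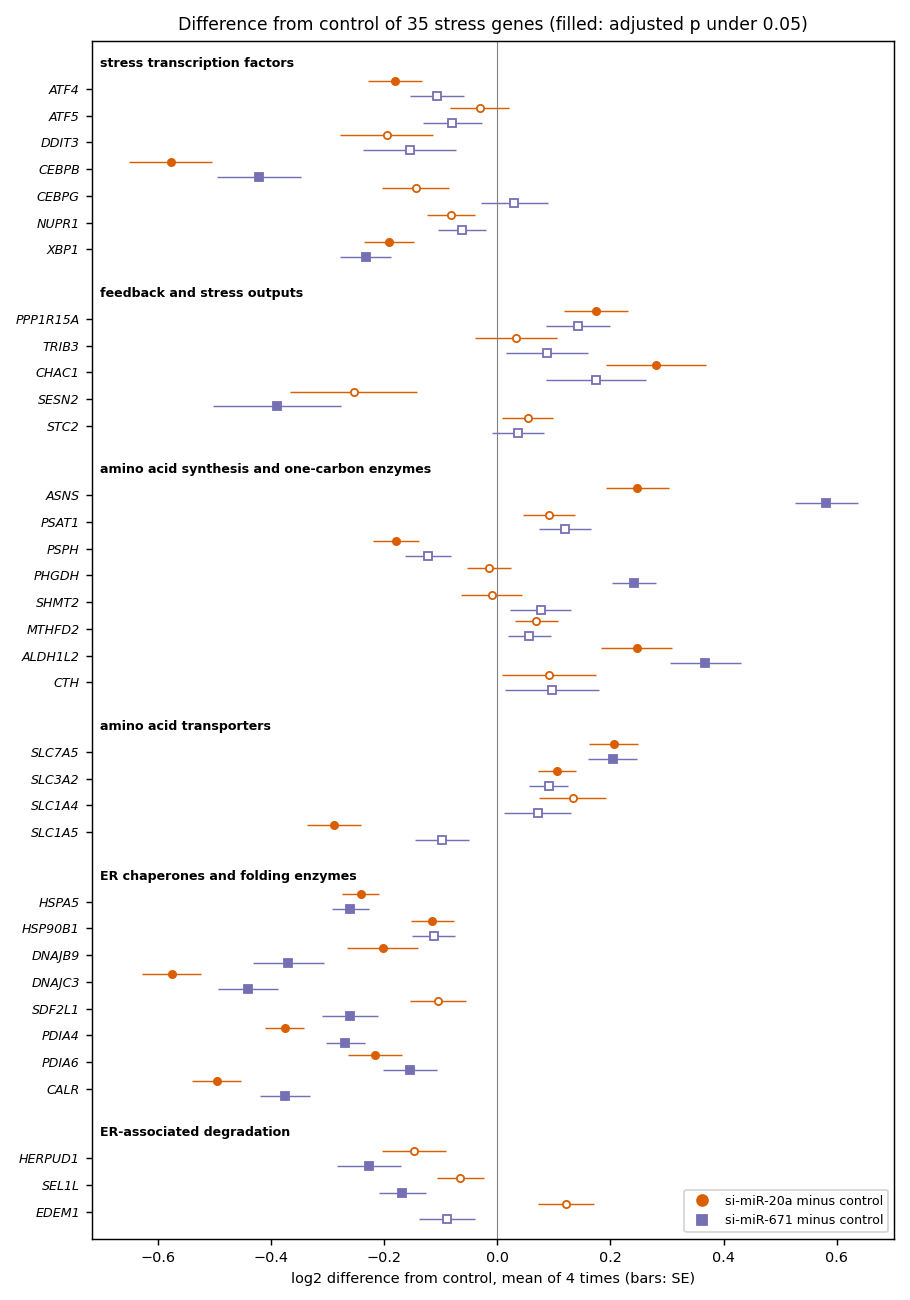
Log2 difference from control (horizontal axis, bars are SE), averaged over 4 times (8 arrays against 8), for the 35 genes grouped by role, in si-miR-20a and si-miR-671. Filled symbols have an adjusted p under 0.05. Of the 8 ER chaperones 7 are filled and below 0 in each transfection, and ASNS in si-miR-671 is the highest value (0.58).

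Markers of other cell states differed with transfection as well. Of the 9 luminal markers 2 were higher and 1 lower in each transfection against control: FOXA1 by 0.60 ± 0.06 in si-miR-20a and 0.82 ± 0.06 in si-miR-671, EPCAM by 0.43 ± 0.07 and 0.50 ± 0.07, and PRLR by -0.81 ± 0.13 and -0.82 ± 0.13, in that order. The summed level of the 9 luminal markers ran from 65.5 to 67.1 in si-miR-20a, 65.3 to 67.7 in si-miR-671 and 65.5 to 67.0 in control. That of the 6 basal markers ran from 68.4 to 68.9, 67.4 to 68.8 and 68.1 to 69.1 in the same groups, with 2 markers higher and 1 lower in si-miR-20a and 1 higher and 3 lower in si-miR-671. Of 8 mesenchymal markers 1 was higher and 1 lower in si-miR-20a and 0 were called in si-miR-671; of 7 blood and endothelial markers 1 was higher and 1 lower in si-miR-20a and 1 was lower in si-miR-671. Their part in the stress gene differences was not tested.

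Between si-miR-671 and control, more probe sets were called at 60 and 120 min than at 0 and 30 min. At the later times 15.4% of all probe sets were called (7.04% higher and 8.37% lower), and 2.81% at the earlier ones (1.36% and 1.44%). These are counts at a cutoff. The late minus early test itself called 0.519% of all probe sets. The transfection differences were therefore also taken separately for early (0 and 30 min) and late (60 and 120 min) arrays, 4 against 4. In si-miR-671 15 of the 35 genes were called late, 7 higher and 8 lower, and 5 early, 2 higher and 3 lower. In si-miR-20a 12 of the 35 were called late, 5 higher and 7 lower, where 16.7% of all probe sets were called (8.95% and 7.75%), and 10 early, 1 higher and 9 lower, where 12% were (4.79% and 7.17%).

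DNAJC3 stood lower late than early in si-miR-671. Its levels there were 9.48, 9.29, 9.44 and 9.71 late and 9.90, 9.94, 9.81 and 9.84 early, against 10.31, 10.25, 10.17 and 10.00 late and 10.01, 10.09, 10.12 and 9.99 early in control. All 4 late si-miR-671 arrays lay below all 4 early ones, while control overlapped between early and late. The difference from control was -0.70 ± 0.07 late (adjusted p = 1.6e-05) and -0.18 ± 0.07 early, not called. The late minus early difference was -0.52 ± 0.10 (adjusted p = 0.044), the only 1 of the 35 called in that test, where 0.519% of all probe sets were called (0.339% lower). It was not called without any of 14 of the 16 arrays (0.051 to 0.15), nor in a fit of the compared arrays only (0.058). In si-miR-20a DNAJC3 was -0.59 ± 0.07 late and -0.56 ± 0.07 early.

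ASNS was higher in si-miR-671 at both times. It had 9.57, 9.74, 9.66 and 9.63 late, against 8.97, 8.96, 8.73 and 8.94 in control, and 9.51, 9.58, 9.47 and 9.48 early, against 9.07, 9.08, 9.03 and 9.21 in control. The groups overlapped at neither. The difference was 0.75 ± 0.08 late (adjusted p = 1.6e-05) and 0.41 ± 0.08 early (0.0097, and 0.055 without control 30 min replicate 1). Late minus early was 0.34 ± 0.11 and was not called (adjusted p = 0.19). In control the 4 late arrays all lay below the 4 early ones.

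Of the other 13 late calls in si-miR-671, 4 were chaperones. CALR (-0.52 ± 0.06, adjusted p = 4.8e-05), PDIA4 (-0.38 ± 0.05, 1.1e-04), HSPA5 (-0.33 ± 0.05, 2.1e-04), CEBPB (-0.63 ± 0.10, 8.0e-04) and DNAJB9 (-0.50 ± 0.09, 0.0015) were lower late, and PHGDH (0.30 ± 0.06, 0.0019) was higher, each also without any 1 array. SLC7A5 was higher late (0.26 ± 0.06, 0.0094; 0.054 without si-miR-671 60 min replicate 2). ALDH1L2, PPP1R15A, SLC3A2 and CHAC1 were called higher late, and HERPUD1 and XBP1 lower, with adjusted p from 0.017 to 0.035; each lost its call without 4 or more of the 8 arrays. Early, SDF2L1 was lower (-0.38 ± 0.07, 0.0069), with 7.43, 7.55, 7.62 and 7.40 in si-miR-671 and 7.89, 7.95, 7.79 and 7.89 in control, without overlap. HSPA5 (-0.19 ± 0.05, 0.045) and XBP1 (-0.25 ± 0.06, 0.045) lost their early calls without any 1 of the 8 arrays, and ALDH1L2 (0.40 ± 0.09, 0.025) without any of 5. In fits of the compared arrays only, none of the 5 early calls held (0.050 to 0.15), and of the late calls 7 did: ASNS, DNAJC3, CALR, PDIA4, HSPA5, CEBPB and DNAJB9.

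In si-miR-20a 4 of the 8 ER chaperones and folding enzymes were called lower late and 5 early, with 0 called higher at either time. Among them CALR stood at -0.53 ± 0.06 late and -0.46 ± 0.06 early, PDIA4 at -0.43 ± 0.05 and -0.32 ± 0.05, and HSPA5 at -0.21 ± 0.05 and -0.28 ± 0.05, all called. CEBPB was at -0.48 ± 0.10 late (adjusted p = 0.0056) and -0.68 ± 0.10 early (6.2e-04). SLC1A5 was called at both, early not without any of 7 of the 8 arrays, and ASNS (0.35 ± 0.08, 0.0066) late. The second probe set of SLC1A5 was called at neither time, at 0.16 ± 0.24 late (0.74) and -0.11 ± 0.24 early (0.84). Of the feedback outputs 3 of 5 were called late and 0 early. In fits of the compared arrays only, 3 late calls held (PDIA4, CALR and DNAJC3) and 9 did not (0.069 to 0.22), HSPA5, CEBPB and the feedback outputs among them; 5 early calls held.

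Those 3 were CHAC1, STC2 and PPP1R15A. CHAC1 in si-miR-20a had 5.34, 5.51, 6.29 and 5.89 late, against 5.10, 4.52, 5.52 and 5.37 in control, and 4.79, 4.87, 4.67 and 5.10 early, against 5.08, 4.93, 4.79 and 4.91 in control. The late groups overlapped, and so did the early ones. The difference was 0.63 ± 0.13 late (adjusted p = 0.0027) and -0.07 ± 0.13 early. STC2 stood at 0.28 ± 0.06 late (0.0075) and -0.17 ± 0.06 early, and PPP1R15A at 0.34 ± 0.08 late (0.0088) and 0.01 ± 0.08 early. The late minus early test of limma called 0 of the 35 genes in si-miR-20a, where 0.00514% of all probe sets were called. CHAC1 stood at 0.71 ± 0.18 (adjusted p = 0.44), STC2 at 0.45 ± 0.09 (0.20) and PPP1R15A at 0.32 ± 0.11 (0.69) in that test. In si-miR-671 the same test gave CHAC1 0.49 ± 0.18 (0.22) and CEBPB -0.42 ± 0.15 (0.21).

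**Figure D5:**
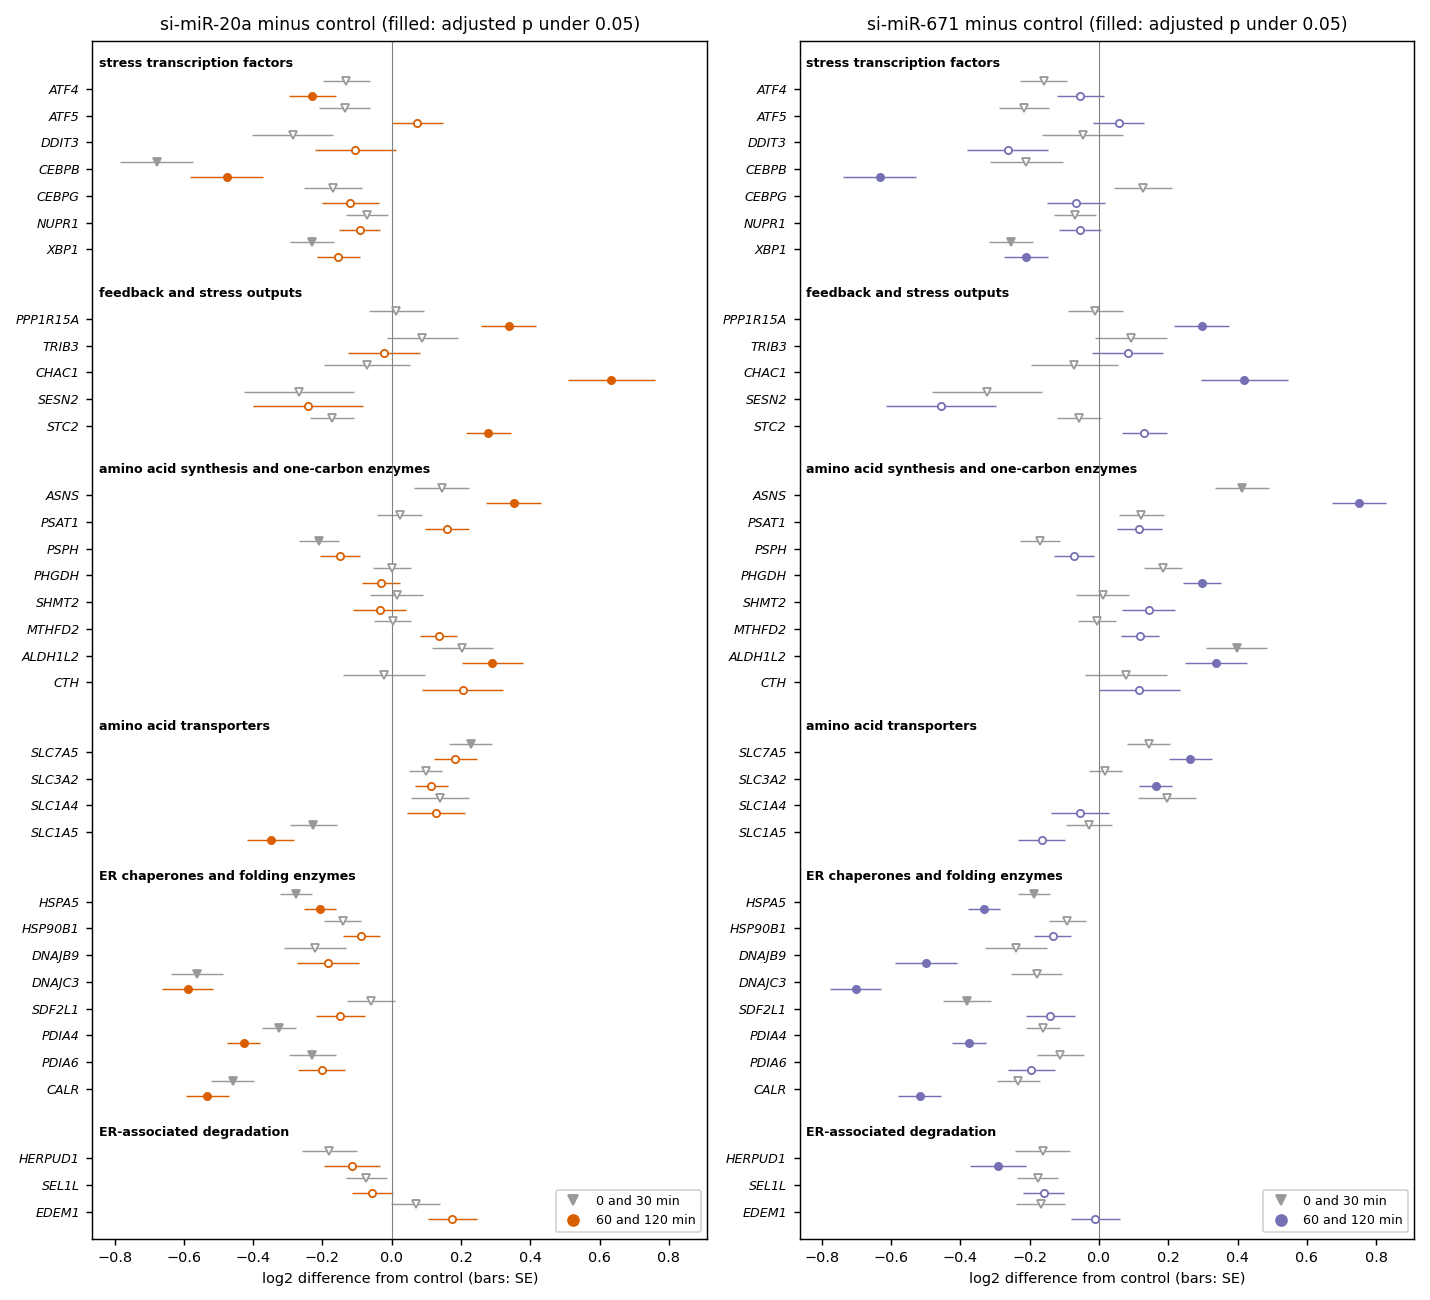
Log2 difference from control (horizontal axis, bars are SE) for the 35 genes at 0 and 30 min and at 60 and 120 min (4 arrays against 4 each), in si-miR-20a (left) and si-miR-671 (right). Filled symbols have an adjusted p under 0.05. DNAJC3 in si-miR-671 lies at -0.70 late and -0.18 early, and CHAC1 in si-miR-20a at 0.63 late and -0.07 early.

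Set against each other over the 4 times, si-miR-20a and si-miR-671 differed in 4 of the 35 genes, 1 higher and 3 lower in si-miR-20a, where 4.54% of all probe sets were called (2.38% higher and 2.16% lower). PHGDH had 10.19, 10.29 and 10.39 in si-miR-20a, against 10.49, 10.54 and 10.61 in si-miR-671. ASNS had 9.10, 9.21 and 9.42 in si-miR-20a, against 9.47, 9.57 and 9.74 in si-miR-671. Neither gene overlapped between the transfections, with differences of -0.26 ± 0.04 for PHGDH (adjusted p = 0.0019) and -0.33 ± 0.06 for ASNS (0.0036). EDEM1, a mannosidase-like protein that marks misfolded glycoproteins for degradation, was higher in si-miR-20a (0.21 ± 0.05, 0.026), and SLC1A5 lower (-0.19 ± 0.05, 0.034). These calls were lost without any of 8 of the 16 arrays for EDEM1 (0.052 to 0.072) and without any of 12 for SLC1A5 (0.058 to 0.087). The dimmer second probe set of SLC1A5 gave -0.01 ± 0.17 (adjusted p = 0.99).

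Another 56 measured genes of the same pathways were listed with them, also with earlier results of these data known. Of these, 18 were higher and 8 lower in si-miR-20a than in control, where 24.5% of all probe sets were called, and 12 higher and 9 lower in si-miR-671, where 14.5% were. Of 13 other genes listed as ATF4-dependent, 4 were higher and 1 lower in si-miR-20a, and 3 higher and 1 lower in si-miR-671. Not all of the 13 serve amino acid supply. Of those higher in si-miR-20a, JDP2 was not called without any of 14 of the 16 arrays, nor VLDLR without any of 12. KLHL24, the 1 lower in si-miR-671, was not called without any of 11. Among the 13 was SLC7A11, which imports cystine for glutathione synthesis and is an ATF4 target. It had 10.13, 10.43 and 11.08 in si-miR-20a, 9.91, 10.12 and 10.58 in si-miR-671, and 9.30, 9.50 and 9.64 in control. All arrays of both transfections lay above control, by 0.98 ± 0.05 in si-miR-20a (adjusted p = 1.1e-08) and 0.71 ± 0.05 in si-miR-671 (4.1e-07), larger than the difference of any of the 35 genes. Of 12 aminoacyl-tRNA synthetases, which load tRNAs with amino acids, 7 were higher in si-miR-20a and 6 in si-miR-671, with 0 lower in either. NARS1, for asparagine, was higher by 0.32 ± 0.05 in si-miR-20a and 0.23 ± 0.05 in si-miR-671. Of 20 other ER folding, export and degradation genes 3 were higher and 7 lower in si-miR-20a, and 2 higher and 7 lower in si-miR-671. ERO1B, an oxidase that supplies disulphide bonds, was lower by -0.32 ± 0.05 in si-miR-20a and -0.44 ± 0.05 in si-miR-671, whereas the lectin chaperone CANX was higher by 0.26 ± 0.04 and 0.27 ± 0.04 in that order. Another 11 genes were sensors, eIF2alpha kinases, phosphatases and associated factors. Of these 4 were higher in si-miR-20a (ATF6, EIF2AK2, EIF2S1 and MBTPS2), and 1 was higher and 1 lower in si-miR-671. ATF6 was higher by 0.14 ± 0.04 in si-miR-20a (adjusted p = 0.018, and 0.051 without 1 of the 16 arrays) and 0.14 ± 0.04 in si-miR-671 (0.023, not called without any of 6 arrays). EIF2AK3, which encodes PERK, was lower in si-miR-671 (-0.22 ± 0.07, 0.035), but not without any of 10 of the 16 arrays.

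Over EGF at 120 min 7 of the 56 were higher and 2 lower, a share near the 13.4% of all probe sets called. ATF3, a stress and growth factor responsive repressor, stood at 3.42 ± 0.10 at 30 min, 3.52 ± 0.10 at 60 min and 1.93 ± 0.10 at 120 min above 0 min. PPP1R15B, the constitutive relative of PPP1R15A, rose by 0.26 ± 0.04, 0.44 ± 0.04 and 0.47 ± 0.04 at these times. DDIT4, an mTORC1 inhibitor that ATF4 can induce, stood at -1.97 ± 0.08 at 120 min. At 120 min of EGF 3 sensors were not called: ERN1, which encodes IRE1, stood at -0.01 ± 0.05, ATF6 at -0.01 ± 0.04 and EIF2AK3 at 0.12 ± 0.08.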

How the data were processed

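The values were log2 expression per probe set as deposited by the authors, made with Affymetrix Expression Console per the submitters' processing notes; for the version, background correction, summarisation and normalization nothing is given in the sources used here. The 24 array medians lay between 6.56 and 6.57. Of 33297 probe sets, 19460 with 1 gene symbol were tested. A single limma 3.58.1 model (R 4.3.3) with 1 mean per group gave all comparisons, with 12 residual degrees of freedom and Benjamini-Hochberg adjustment; its code was tested on simulated data. Tables and figures used Python 3.11.15. All 35 genes were followed, with per-array values for those the results turn on, and of the other pathway genes up to 6 called with the largest change were considered for naming. These genes and lists were chosen with earlier results of these data known. Replicate numbers did not consistently pair the arrays: over 66 pairs of groups, deviations correlated at -0.57 to 0.55 (median 0.063), with 30 pairs above 0.1. Pairing or shared handling of some groups was not tested. With 2 arrays against 2, an exact two-sided permutation test cannot go below 0.33. The array number limits precision. Cells with an oligonucleotide against miR-212, named in the protocol, were not analysed here.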

Additional observations from a re-analysis of the deposited data

Results flagged for a closer look

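A limma interaction term called a different si-miR-671 minus control difference at 60 and 120 min than at 0 and 30 min. It did so for 1 of the 35 genes and 1 of the 56 other pathway genes, where 0.519% of all probe sets were called. DNAJC3 had a late minus early difference of -0.52 ± 0.10 (adjusted p = 0.044), and was called lower late but not early. SLC7A11, one of the other pathway genes, had 0.54 ± 0.11 (adjusted p = 0.039), with 10.29, 10.42, 10.58 and 10.56 late and 9.92, 9.95, 9.91 and 9.94 early in si-miR-671, against 9.30, 9.37, 9.64 and 9.59 late and 9.43, 9.49, 9.51 and 9.51 early in control. The call of DNAJC3 was lost without any of 14 of the 16 arrays (0.051 to 0.15) and that of SLC7A11 without any 1 of the 16 (0.056 to 0.13).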

How the results depend on the processing

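Of 114 calls of the 35 genes in 15 comparisons, 73 held without any 1 array, 41 were lost without at least 1, and 0 changed direction. Quantile normalization kept all 114. The deposited arrays already had nearly equal quartiles (lower 4.95 to 4.97, upper 8.26 to 8.28), so it could change little and does not test the normalization. A trend in the variance kept 112. Fitting the compared arrays only kept 59: the counts were then 8 at EGF 120 min on average, 0 in control, 1 in si-miR-20a and 0 in si-miR-671 alone, 2 for si-miR-20a against si-miR-671, 5 early and 3 late for si-miR-20a, 0 early and 7 late for si-miR-671, and 0 for its late minus early test. With dim probe sets left out, counts were 5 at EGF 120 min in control and 8 early in si-miR-671. With the variance trend they were 8 at EGF 120 min in si-miR-671 and 8 early in si-miR-671. Testing all probe sets kept 92 of the 114 calls and lost 22. It gave 2 for si-miR-20a against si-miR-671, 3 early in si-miR-671 and 0 for its late minus early test. Without the si-miR-671 arrays in the average, EGF counts were 1 at 30 min, 2 at 60 min and 11 at 120 min. Means over a gene's probe sets kept 107 calls. The causes were not tested.

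Leaving out 1 array at a time gave 1 to 1 calls at EGF 30 min, 2 to 4 at 60 min and 9 to 14 at 120 min, and at 120 min 4 to 10 in si-miR-20a, 2 to 5 in si-miR-671 and 2 to 3 in control. It gave 13 to 20 for si-miR-20a and 14 to 17 for si-miR-671 against control, 5 to 10 early and 10 to 13 late for si-miR-20a, 2 to 3 early and 8 to 12 late for si-miR-671, and 2 to 4 between the transfections. The late minus early tests gave 0 to 1 for si-miR-20a and 0 to 1 for si-miR-671. A lone array left in a group was assumed to vary like the other groups.

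Replicate numbers as a block, though per the labels they share only a number, gave 3 early calls in si-miR-671 in place of 5, 13 at EGF 120 min on average, and kept 111 of 114 calls. Of the 35 genes, CHAC1 and CTH had means below the median of all values.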
